A study of Homo sapiens with 9 samples.

Results

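Plasminogen activation and the start of coagulation were followed through 5 genes of the human fibrosarcoma line HT1080: the urokinase gene PLAU, the tissue-type activator gene PLAT, the urokinase receptor gene PLAUR, the inhibitor gene SERPINE2 and the tissue factor gene F3. The 5 genes were taken by name, and their probe sets by the gene symbol in the array platform's annotation. They are 5 of the 9453 genes that the annotation named and that had values. The annotation gave them 9 probe sets, of which 8 had values. One of the 2 SERPINE2 probe sets, 227487_s_at, was listed without a value.

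RNA was measured on 9 Affymetrix arrays, 3 for each of 3 kinds of HT1080 cells. The first group, labelled MTAP-, lacks methylthioadenosine phosphorylase (MTAP), the enzyme that splits methylthioadenosine, a by-product of polyamine synthesis, for the recycling of methionine and adenine. The second group, MTAP+, has the enzyme. The third is MTAP+ cells that received MT-DADMe-ImmA, an inhibitor of the enzyme, at 10 µM and were harvested 48 hours later. All were grown in DMEM to 80% confluency, and the first 2 groups are labelled as not treated. No source used here says how the MTAP+ cells were made or whether they are 1 clone. The design text calls the 3 arrays of a group biological replicates, but nothing says that they came from separate cultures, so p-values measure only the spread between these arrays.

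Urokinase and tissue-type plasminogen activator are secreted serine proteases that cut plasminogen into plasmin, which digests fibrin and matrix proteins and activates other proteases. Urokinase does this at the cell surface while bound to its receptor, a glycolipid-anchored protein, and HT1080 cells are a common laboratory model of such surface proteolysis. SERPINE2 encodes protease nexin 1, a serpin that traps thrombin, urokinase and tissue-type activator, and F3 encodes tissue factor, the membrane receptor for factor VII that starts coagulation.

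The bases just before the transcription start are shown for F3, PLAU and SERPINE2, whose RNA changed as described below, and for PLAUR, which shares with F3 a match that the PLAU and SERPINE2 windows lack. Each window is the 250 bases upstream of a RefSeq start (GRCh38.p14), printed on the gene's own strand. F3 lies at chr1:94541760-94542009 on the minus strand, and PLAU at chr10:73910882-73911131 on the plus strand, its second of 2 starts. PLAUR lies at chr19:43670170-43670419 on the minus strand, and SERPINE2 at chr2:224038641-224038890 on the minus strand, its first of 2 starts. PLAT changed too, as described below, but its window was not used here, so the windows do not cover all members that changed. Capitals mark matches, on either strand, to the letters searched for AP-1 (TGANTCA), Sp1 (GGGCGG), EGR1 (GCGNGGGCG), NF-kB (GGGNNTTCC) and a TATA box (TATAAA).
F3: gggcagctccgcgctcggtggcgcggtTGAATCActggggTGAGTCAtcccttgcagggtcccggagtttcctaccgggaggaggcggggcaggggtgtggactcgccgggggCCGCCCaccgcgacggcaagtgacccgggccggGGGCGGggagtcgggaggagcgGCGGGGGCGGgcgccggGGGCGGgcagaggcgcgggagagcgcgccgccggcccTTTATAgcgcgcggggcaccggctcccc
PLAU: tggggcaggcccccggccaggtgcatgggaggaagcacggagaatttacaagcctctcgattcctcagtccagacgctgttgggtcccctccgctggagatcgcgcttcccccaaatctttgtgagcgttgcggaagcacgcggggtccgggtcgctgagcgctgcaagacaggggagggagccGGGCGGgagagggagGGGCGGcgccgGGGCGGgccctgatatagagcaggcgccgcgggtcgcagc
PLAUR: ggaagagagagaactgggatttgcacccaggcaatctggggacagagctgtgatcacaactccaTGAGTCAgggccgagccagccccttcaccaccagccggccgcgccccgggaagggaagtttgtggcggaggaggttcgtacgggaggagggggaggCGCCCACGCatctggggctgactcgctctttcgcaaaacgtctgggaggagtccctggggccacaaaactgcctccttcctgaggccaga
SERPINE2: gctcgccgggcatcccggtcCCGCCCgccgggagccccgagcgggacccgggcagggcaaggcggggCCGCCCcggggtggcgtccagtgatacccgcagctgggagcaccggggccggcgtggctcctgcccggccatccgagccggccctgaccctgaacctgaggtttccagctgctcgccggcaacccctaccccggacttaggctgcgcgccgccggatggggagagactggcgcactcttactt

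Matches to the AP-1 letters, the site of the Fos and Jun family, were in the windows of F3 and PLAUR. The F3 window had 2 of them, TGAATCA at 223 and TGAGTCA at 210 bases before the start, and the PLAUR window had 1, TGAGTCA at 186 bases. Of 35116 RefSeq windows of this length, 6.57% held at least 1 AP-1 match and 0.402% held 2 or more. The F3 window also had 4 Sp1 matches, and 1 of them overlapped its single EGR1 match. The reverse of the TATA letters stood 28 bases before the F3 start. The second PLAU window had 3 Sp1 matches between 66 and 40 bases before the start. Of all windows, 13.9% held 3 or more Sp1 matches. The cut-offs of 2 AP-1 and 3 Sp1 matches equal the counts in the F3 and second PLAU windows. PLAUR was shown because of its AP-1 match, so these shares are a description. The first PLAU window had no match to any of the letters. SERPINE2 had 2 Sp1 matches before its first start and 1 before its second. PLAUR had no Sp1 match and 1 EGR1 match, at 90 bases. None of the 6 windows searched matched the NF-kB letters, which 5.78% of windows held, while 42.6% held Sp1, 8.41% EGR1 and 10.7% TATA letters. Only exact letters were counted, and the F3 window holds ggagtttcc, which differs from the NF-kB letters by 1 base. GC content was 78.0% in the F3 window against a median of 58.0% over all windows. A match is a run of letters and does not show that a factor binds there, and the lack of a match does not show that none binds.

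**Figure D1:**
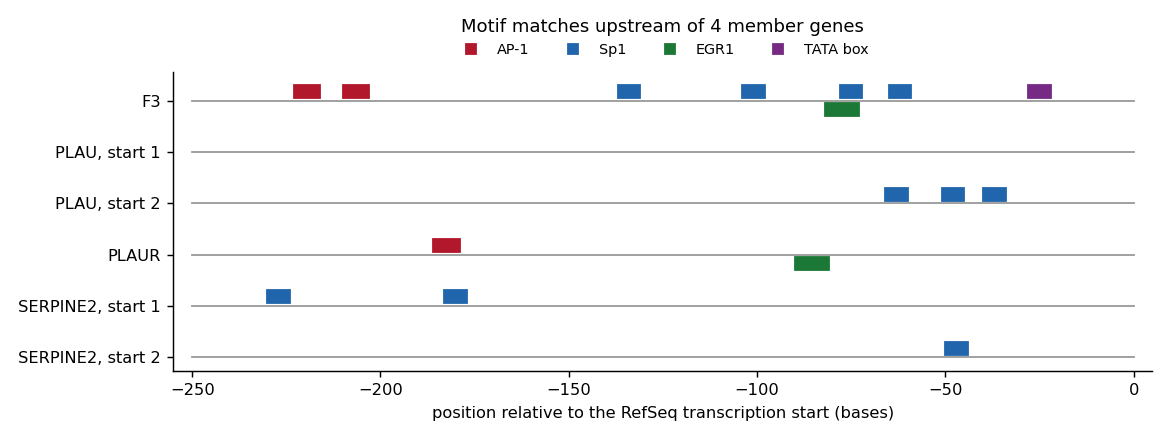
Matches to 4 of the 5 motifs in the 6 upstream windows of F3, PLAU, PLAUR and SERPINE2; the horizontal axis is the position in bases relative to the RefSeq start, and each block is 1 match. AP-1 blocks appear in the F3 window at 223 and 210 bases and in the PLAUR window at 186 bases, and Sp1 blocks in the F3, PLAU and SERPINE2 windows.

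MTAP itself followed the labels. Its probe set 216685_s_at read 3.96 ± 0.10 (log2, SD, n = 3) in MTAP- cells, 11.63 ± 0.07 in MTAP+ cells and 11.39 ± 0.14 with the inhibitor. Of 12 mesenchymal marker genes 7 had values, with group means of VIM between 13.9 and 14.0. Some of them differed between MTAP-, MTAP+ and inhibitor-treated cells: the means were 10.81, 12.15 and 12.38 for FN1, 12.50, 13.06 and 13.05 for SPARC and 11.01, 10.72 and 10.72 for CALD1. Over the 9 arrays CD44 lay between 12.28 and 12.81, while COL1A1, between 6.78 and 7.19, and TAGLN, between 6.60 and 7.23, were low. Of other markers, 2 of 8 epithelial markers (KRT8 and KRT18) and 1 of 6 blood markers (LYZ, with means of 4.89, 7.35 and 5.68) had values. In the same order of groups the means were 9.76, 10.12 and 9.73 for KRT8 and 12.24, 12.47 and 12.35 for KRT18. The part of these markers in the results was not tested. None of the endothelial, neural, melanocyte or liver markers had a value. Array medians lay between 8.24 and 8.38. In bulk RNA such as this, fewer cells with a transcript and less of it per cell cannot be told apart.

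All differences below are on the log2 scale of the deposited values, which the authors made with RMA, a normalised summary of probe brightness. They come from 1 limma model over the 9 arrays, with the adjusted p after Benjamini-Hochberg correction over all genes tested. The brightest probe set, by its mean over all arrays, stood for each gene. "Passed" means an adjusted p below 0.05, and a range in brackets is a 95% interval. All 5 genes passed the filter on low values (log2 7.96 on at least 3 of 9 arrays), but F3 did so only through the 3 MTAP- arrays, so it had to differ to be tested, and the counts over members are a description. The 3 comparisons share arrays and are not independent of each other.

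The first comparison asked how cells with MTAP differ from cells without it. F3 was 2.54-fold lower and SERPINE2 2.30-fold higher in MTAP+ cells, and these 2 were the members that passed. Ordered by size among the 7010 genes tested other than MTAP, F3 had rank 7 of the falls and SERPINE2 rank 79 of the rises. PLAU, PLAT and PLAUR did not pass. The background is wide here: 19.1% of 7010 genes (MTAP left out) passed, against 2 of 5 members. With same-numbered arrays paired as a replicate block, 1917 genes passed instead of 1336, and 3 of 5 members, PLAU among them. The readings of the 2 groups were apart, with no array of one inside the range of the other, for 4 of 5 members and for 35.2% of all genes. At the level of probe sets, 3 of 8 member probe sets passed, against 14.8% of 17466. The median difference over the 5 members was 0.16, against 0.01 over all genes.

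The second comparison asked what 48 hours of the inhibitor did to MTAP+ cells. PLAU rose 1.32-fold and PLAT 1.35-fold, both genes of the activators themselves. SERPINE2, F3 and PLAUR did not pass. With 1 array left out the rises stayed between 0.35 and 0.44 on the log2 scale for PLAU and between 0.38 and 0.48 for PLAT, but 0 to 2 members passed, as given for each gene below. Of all genes 14.9% passed (1042 genes, or 1589 with same-numbered arrays paired as a replicate block), against 2 of 5 members, and groups were apart for 36.4% of all genes, against 2 of 5 members. Of all probe sets 10.3% passed, against 3 of 8. The 3 were PLAU 205479_s_at and PLAT 201860_s_at, which rose, and PLAUR 214866_at, which fell. Their adjusted p over all probe sets was 0.0471, 0.0499 and 0.0435, and these calls were lost in 10, 11 and 10 of 16 alternatives. The median member difference was 0.15, against -0.02 over all genes.

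The third comparison set MTAP+ cells with the inhibitor against MTAP- cells. SERPINE2 was 2.56-fold and PLAU 1.61-fold higher, PLAT was higher by 0.59 on the log2 scale, and F3 was 2.46-fold lower. PLAUR did not pass. Here 37.3% of all genes passed, against 4 of 5 members, and groups were apart for 54.6% of all genes and for all 5 members. Of all probe sets 30.7% passed, against 6 of 8. The median member difference was 0.59, against -0.00 over all genes.

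**Figure D2:**
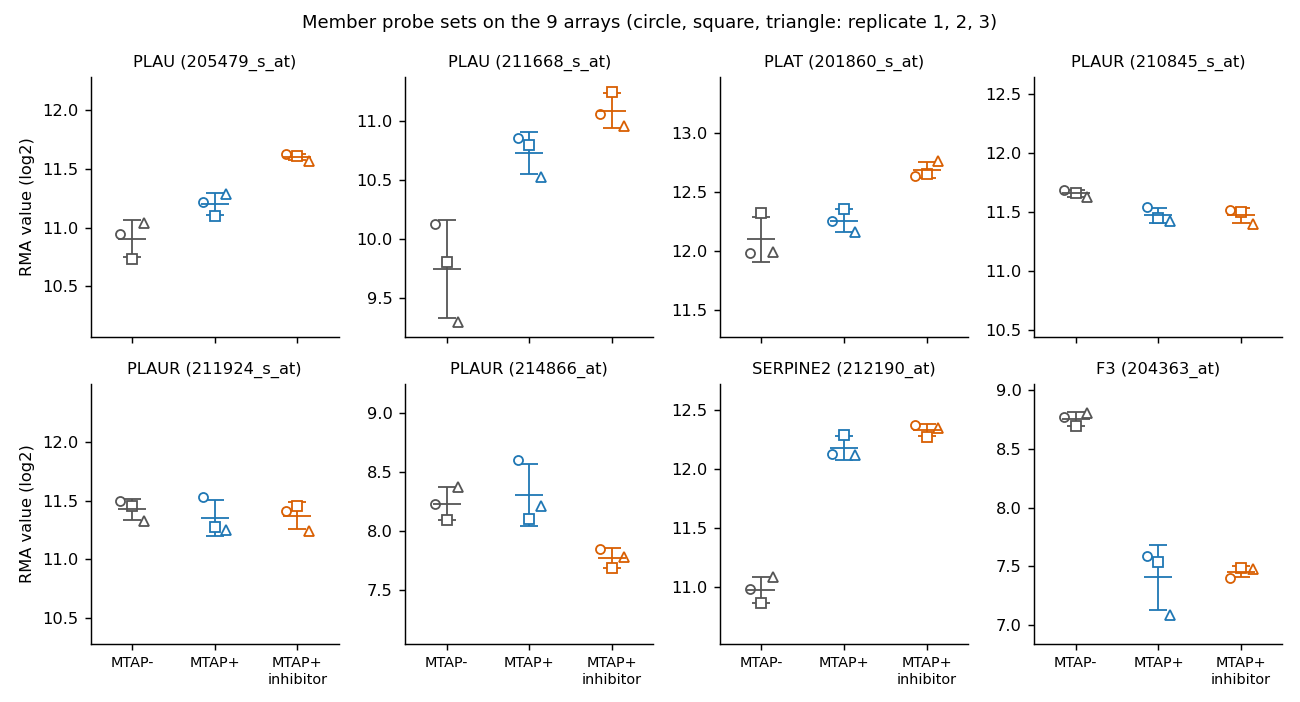
Deposited RMA values (log2, vertical axis) of the 8 member probe sets on the 9 arrays, by group; open symbols are arrays, the long dash is the group mean and the bars are 1 SD, and each panel spans the same number of log2 units around its own centre. F3 lies between 8.69 and 8.80 in MTAP- cells and between 7.09 and 7.59 on the other 6 arrays, while SERPINE2 lies between 10.87 and 11.08 and then between 12.12 and 12.37.

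PLAU is the urokinase gene. Its brighter probe set, 205479_s_at, read 10.95, 10.73 and 11.04 on the MTAP- arrays of replicates 1, 2 and 3. In MTAP+ cells it read 11.21, 11.10 and 11.28, and with the inhibitor 11.62, 11.60 and 11.57. The 3 groups thus lay in steps without overlap, MTAP- lowest and inhibitor-treated highest. The lower step was 0.29 ± 0.11 (SE) [0.06 to 0.53] and did not pass (adjusted p = 0.0781). The upper step, from MTAP+ to inhibitor-treated cells, was 0.40 ± 0.11 [0.17 to 0.63] and passed with an adjusted p of 0.0307. From MTAP- to inhibitor-treated cells PLAU rose by 0.69 ± 0.11 (adjusted p = 7.91e-04). With same-numbered arrays paired as a replicate block, the lower step passed as well (adjusted p = 0.0474), so that 3 of 5 members did.

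The upper step of PLAU lay close to the threshold. It no longer passed without MTAP+ replicate 1 (adjusted p = 0.0647) or 2 (0.0685), or without inhibitor replicate 1 (0.0891), 2 (0.0855) or 3 (0.0946). The difference itself stayed between 0.35 and 0.44 over these omissions. The rise over MTAP- cells passed in all 19 alternatives run, with adjusted p from 1.00e-04 to 0.00459.

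The second PLAU probe set, 211668_s_at, gave another balance of the steps. It read 10.13, 9.81 and 9.29 in MTAP- cells, 10.86, 10.80 and 10.52 in MTAP+ cells, and 11.06, 11.24 and 10.95 with the inhibitor. The lower step was the large one here, 0.98 ± 0.20 with an adjusted p of 0.0109 over all probe sets. The upper step, 0.36 ± 0.20 [-0.08 to 0.80], did not pass (adjusted p = 0.276). Both probe sets thus ordered the groups alike, and they differed in which step was larger. Averaging them gave PLAU a first step of 0.64 with an adjusted p of 0.00346.

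A control for RNA and labelling moved with this probe set. The ACTB control probe sets at the 5' and 3' ends of the transcript differ more, with the 5' end dimmer, where RNA is shortened or copied incompletely. The 5' minus 3' value was -1.81, -2.17 and -3.52 on the MTAP- arrays, -1.33, -1.03 and -1.92 on the MTAP+ arrays and -1.93, -0.88 and -2.09 on the inhibitor arrays. MTAP- replicate 3 was lowest both in this value and in PLAU 211668_s_at, where 211668_s_at minus 205479_s_at was -1.75, against -0.92 to -0.30 on the other 8 arrays. Without that array the lower step of 211668_s_at was 0.76 (adjusted p = 0.0223). With the ACTB value as a covariate it was 0.59 (adjusted p = 0.0533), and the upper step was 0.44 (adjusted p = 0.0494). What part RNA quality has in the difference between the probe sets was not tested further.

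**Figure D3:**
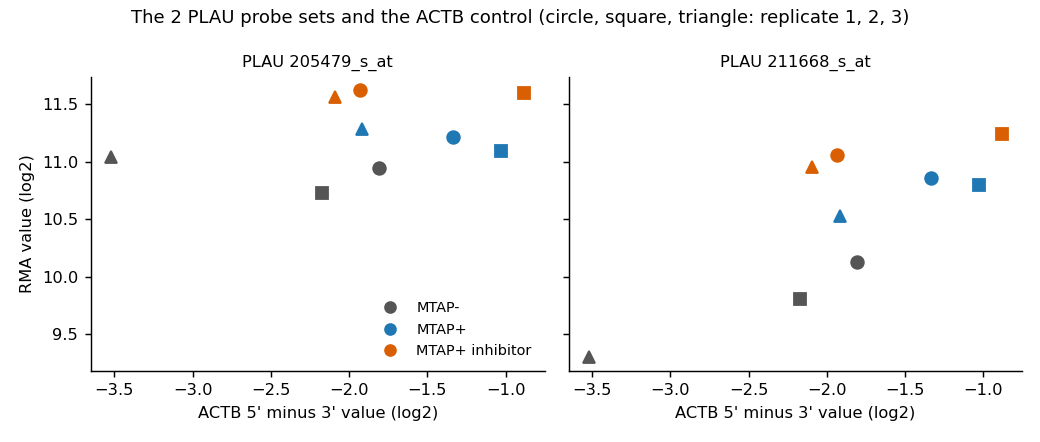
The PLAU probe sets 205479_s_at (left) and 211668_s_at (right), in log2, against the ACTB 5' minus 3' value (log2) of the same array; each symbol is 1 of the 9 arrays, coloured by group and shaped by replicate. MTAP- replicate 3, at -3.52, is the lowest array of 211668_s_at (9.29) and the highest MTAP- array of 205479_s_at (11.04).

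PLAT encodes the other activator, best known for dissolving clots. Its probe set 201860_s_at read 11.98, 12.32 and 11.99 in MTAP- cells, 12.25, 12.35 and 12.16 in MTAP+ cells, and 12.64, 12.65 and 12.76 with the inhibitor. The inhibitor arrays stood above the other 6, and the MTAP- and MTAP+ arrays overlapped. MTAP+ and MTAP- cells differed by 0.16 ± 0.11 [-0.10 to 0.41], which did not pass (adjusted p = 0.361). The inhibitor raised PLAT by 0.43 ± 0.11 [0.17 to 0.68] in MTAP+ cells (adjusted p = 0.0326), and inhibitor-treated cells exceeded MTAP- cells by 0.59 ± 0.11 (adjusted p = 0.00301).

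The rise of PLAT with the inhibitor lay close to the threshold as well. It did not pass without MTAP+ replicate 1 (adjusted p = 0.0729) or 3 (0.0878), or without inhibitor replicate 1 (0.0724), 2 (0.0765) or 3 (0.134). The difference over these omissions lay between 0.38 and 0.48. Leaving out any 1 inhibitor array or MTAP+ replicate 1 thus left 0 of 5 members past the threshold in this comparison, and leaving out MTAP+ replicate 2 or 3 left 1. The rise over MTAP- cells passed in all 19 alternatives.

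PLAUR encodes the receptor that holds urokinase at the surface. Its brightest probe set, 210845_s_at, read 11.69, 11.66 and 11.62 in MTAP- cells, 11.54, 11.45 and 11.42 in MTAP+ cells, and 11.51, 11.50 and 11.40 with the inhibitor. The MTAP- arrays were the 3 highest, by a small margin, and the other 2 groups overlapped. The difference between MTAP+ and MTAP- cells was -0.19 ± 0.09 [-0.38 to 0.01], adjusted p = 0.161. Against MTAP- cells the inhibitor-treated cells differed by -0.19 ± 0.09 (adjusted p = 0.117). Between MTAP+ cells with and without the inhibitor the interval of 210845_s_at ran from -0.20 to 0.19. A change of the size seen for PLAU or PLAT lies outside it on this probe set, but 214866_at fell by 0.54 there, as given below.

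The other PLAUR probe sets did not give one picture. Probe set 211924_s_at ranged from 11.24 to 11.53 with all groups overlapping, and passed in no comparison. Probe set 214866_at read 8.23, 8.09 and 8.37 in MTAP- cells, 8.61, 8.10 and 8.21 in MTAP+ cells, and 7.85, 7.68 and 7.79 with the inhibitor. The inhibitor arrays were the 3 lowest. This probe set fell by 0.54 ± 0.14 with the inhibitor in MTAP+ cells (adjusted p = 0.0435) and lay 0.46 ± 0.14 lower in inhibitor-treated than in MTAP- cells (adjusted p = 0.0357). The first of these calls was lost in 10 of 16 alternatives and the second in 6 of 16, among them the omission of any 1 inhibitor array in both, of MTAP- replicate 1 in both, of MTAP- replicate 2 or MTAP+ replicate 1 or 3 in the first, and of MTAP- replicate 3 in the second, with adjusted p up to 0.133 and 0.147. Which transcript forms each probe set reads was not examined here.

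SERPINE2, the protease nexin 1 gene, had the largest rise of the members. Its probe set 212190_at read 10.98, 10.87 and 11.08 in MTAP- cells, 12.13, 12.29 and 12.12 in MTAP+ cells, and 12.37, 12.27 and 12.35 with the inhibitor. The 6 arrays of cells with MTAP stood more than 1 log2 unit above the 3 without, and the 2 MTAP+ groups overlapped. SERPINE2 rose by 1.20 ± 0.10 [0.98 to 1.42] in MTAP+ over MTAP- cells (adjusted p = 7.43e-05), and by 1.36 ± 0.10 in inhibitor-treated over MTAP- cells (adjusted p = 1.44e-05). The inhibitor itself gave 0.15 ± 0.10 [-0.06 to 0.37], which did not pass (adjusted p = 0.324). Both rises passed in each of the 19 alternatives, where the first ranged from 1.13 to 1.26 and the second from 1.30 to 1.41.

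F3, the tissue factor gene, ran the other way. Its probe set 204363_at read 8.77, 8.69 and 8.80 in MTAP- cells, 7.59, 7.54 and 7.09 in MTAP+ cells, and 7.40, 7.48 and 7.48 with the inhibitor. The 3 MTAP- arrays were the highest, and the 2 MTAP+ groups overlapped, with the lowest reading on MTAP+ replicate 3. F3 fell by 1.35 ± 0.13 on the log2 scale in MTAP+ relative to MTAP- cells (adjusted p = 1.76e-04), and by 1.30 ± 0.13 in inhibitor-treated relative to MTAP- cells (adjusted p = 7.79e-05). Between the 2 MTAP+ groups the difference was 0.05 ± 0.13 [-0.24 to 0.34], adjusted p = 0.847. Without MTAP+ replicate 3, F3 fell by 1.19 from MTAP- to MTAP+ cells (adjusted p = 2.55e-04), and the inhibitor difference turned to -0.11. Both falls passed in each of the 18 alternatives that kept F3, and the stricter filter at the 60th percentile left it out. On the 6 arrays of cells with MTAP the readings lay below the filter and above the lowest level that the table keeps on 3 arrays, 6.64, and no detection calls were used here.

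**Figure D4:**
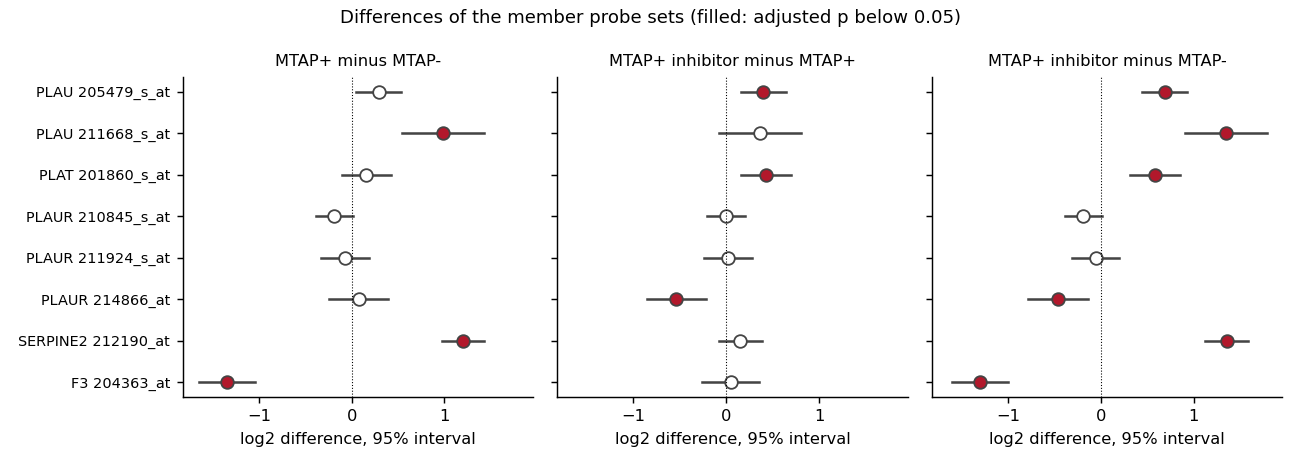
Log2 differences of the 8 member probe sets in the 3 comparisons (horizontal axis), with 95% intervals from limma over all probe sets; filled points have an adjusted p below 0.05. SERPINE2 at 1.20 and F3 at -1.35 stand out in the first panel, the second panel spans -0.54 (PLAUR 214866_at) to 0.43 (PLAT), and the 2 PLAU probe sets differ most in the first panel.

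Genes whose level followed each member most closely over the 9 arrays were taken by Pearson correlation, as a description of arrays that share their groups and processing. F3 was followed by RMDN3 (r = 0.981), RRM1 (0.978), a subunit of ribonucleotide reductase, and MMP3 (0.977), the matrix protease stromelysin 1. MMP3 differed by -1.77 between MTAP+ and MTAP- cells and by -0.34 between MTAP+ cells with and without the inhibitor. SERPINE2 was followed by RNF149 (0.989), ZNF627 (0.989) and the cytokine gene LIF (0.988), which was 0.92 higher in MTAP+ than in MTAP- cells. PLAU was followed by DMBT1 (0.988), APLP2 (0.987) and the calcineurin regulator gene RCAN1 (0.985). DMBT1 differed by 0.68 and 1.31 over the same 2 steps. PLAT was followed by POC1B (0.963), the transcription factor gene MYC (0.957) and MED13L (0.954), and MYC was 1.02 higher with the inhibitor than without it in MTAP+ cells. PLAUR was followed by PPIF (0.960), LRRC59 (0.959) and CSRP1 (0.956), whose first differences were -0.72, -0.31 and -0.44.

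Other genes of plasminogen activation and its surface receptors were counted from a list of 20, of which 8 were tested beside the members. With MTAP 3 rose and 0 fell, with the inhibitor in MTAP+ cells 0 passed, and in inhibitor-treated against MTAP- cells 2 rose and 1 fell. Thus 3, 0 and 3 of 8 passed, against 19.1%, 14.9% and 37.3% of all genes, and the third count is near that share. The list medians were -0.07, 0.02 and -0.14, against 0.01, -0.02 and -0.00 over all genes. MRC2, the endocytic collagen receptor that associates with the urokinase receptor, rose by 1.11 ± 0.17 in MTAP+ over MTAP- cells (adjusted p = 0.00203) and by 1.26 ± 0.17 in inhibitor-treated over MTAP- cells (adjusted p = 4.32e-04). VLDLR, a receptor that takes up protease-inhibitor complexes, rose by 0.65 (adjusted p = 0.0148) and 0.74 (adjusted p = 0.00364) in the same comparisons, the first of which was lost with the ACTB covariate (adjusted p = 0.126). VLDLR was above the filter on 0 MTAP- arrays, 1 MTAP+ array and 2 inhibitor arrays, so it was tested only through the higher groups. The counts of rises above include VLDLR and are a description. IGF2R, which binds the urokinase receptor and lysosomal enzymes, rose by 0.38 with an adjusted p of 0.0477, and lost its call without MTAP- replicate 2 or 3, MTAP+ replicate 1 or 3, or inhibitor replicate 1 or 3 (adjusted p up to 0.130). Over all 19 alternatives IGF2R lost it in 11, also without the filter, after centring or quantile normalization, with only the 2 groups and with the ACTB covariate (adjusted p = 0.329). PLGRKT, a plasminogen receptor, fell by 0.51 in inhibitor-treated relative to MTAP- cells (adjusted p = 0.0130), and its adjusted p was 0.0530 without inhibitor replicate 2. The plasminogen-binding proteins of highest level, ANXA2 and ENO1, passed in no comparison.

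Serpins are protease inhibitors of one fold, though some have other tasks. Of 31 serpin genes in the annotation 6 had values, and 5 were tested beside SERPINE2. With MTAP 2 rose and 1 fell, with the inhibitor in MTAP+ cells 0 rose and 2 fell, and in the third comparison 2 rose and 2 fell. Of all genes 19.1%, 14.9% and 37.3% passed, against 3, 2 and 4 of 5 here. The medians were 0.14, -0.10 and -0.29, against 0.01, -0.02 and -0.00 over all genes. SERPINB5, known as maspin, fell by 0.85 ± 0.14 (adjusted p = 0.00424) and SERPINB8 by 0.80 ± 0.13 (adjusted p = 0.00507) when MTAP+ cells received the inhibitor, and both calls held in all 19 alternatives. SERPINB5 means went from 9.23 ± 0.11 in MTAP- cells through 8.88 ± 0.29 in MTAP+ cells to 8.03 ± 0.02 with the inhibitor (SD, n = 3). SERPINB8 read 9.23 ± 0.22, 9.37 ± 0.19 and 8.57 ± 0.04. Between MTAP+ and MTAP- cells neither passed, with adjusted p of 0.0957 and 0.480. SERPINH1, a collagen chaperone that inhibits no protease, rose by 0.48 in MTAP+ over MTAP- cells (adjusted p = 0.00821; 0.0914 with the ACTB covariate). SERPINB1, an inhibitor of neutrophil proteases, rose by 0.33 (adjusted p = 0.0241) and SERPINB7 fell by 0.44 (adjusted p = 0.0200). Both of these lost their call without MTAP- replicate 2 or 3 or without MTAP+ replicate 3, and SERPINB1 also without MTAP+ replicate 1 (adjusted p up to 0.0652 and 0.0752). With the ACTB covariate their adjusted p was 0.116 and 0.166, and SERPINB1 did not pass after centring, quantile normalization or a fit of only the 2 groups. The other SERPINB1 probe set, 213572_s_at, rose by 0.66 with MTAP (adjusted p = 0.00491 over all probe sets). In inhibitor-treated over MTAP- cells SERPINB1 rose by 0.51 (adjusted p = 0.00135), in all 18 alternatives that kept it.

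The tissue factor list held coagulation factors, their inhibitors, thrombin receptors and genes needed to make them. Of its 8 tested genes beside F3, 3 rose and 0 fell with MTAP, 1 rose and 0 fell with the inhibitor in MTAP+ cells, and 4 rose and 0 fell in the third comparison. The shares over all genes were 19.1%, 14.9% and 37.3%, so 1 of 8 is near the background of the second comparison. The medians were 0.27, 0.22 and 0.42, against 0.01, -0.02 and -0.00. F2R, the main thrombin receptor, rose by 1.48 ± 0.25 in MTAP+ over MTAP- cells (adjusted p = 0.00318) and by 1.57 ± 0.25 in inhibitor-treated over MTAP- cells (adjusted p = 9.37e-04) on probe set 203989_x_at. Its other probe set, 1569642_at, differed by -0.04 and -0.07 and passed in neither. F2R was above the filter on 1 MTAP- array, 3 MTAP+ arrays and 3 inhibitor arrays, so it was tested only through the higher groups. F2RL2, another receptor of the thrombin family, rose by 0.86 ± 0.20 (adjusted p = 0.0147) and 1.26 ± 0.20 (adjusted p = 9.11e-04). It was above the filter on 0 MTAP- arrays, 1 MTAP+ array and 3 inhibitor arrays, so it was tested only because it was higher there. The counts of rises against MTAP- cells include F2R and F2RL2 and are a description. Thrombin, whose receptors these are, is also a target of the SERPINE2 protein. P4HB, a disulfide isomerase, rose by 0.43 in MTAP+ over MTAP- cells (adjusted p = 0.0300), a call lost in 7 of 19 alternatives: without MTAP- replicate 2 or 3 or MTAP+ replicate 1 or 3 (adjusted p up to 0.0982), with its probe sets averaged, with only the 2 groups and with the ACTB covariate (adjusted p = 0.238). PROCR, the receptor of protein C, rose by 0.43 with the inhibitor (adjusted p = 0.0329), and did not pass without MTAP+ replicate 1 or 2 or any 1 inhibitor array (adjusted p up to 0.124). VKORC1, an enzyme of the vitamin K cycle, rose by 0.62 in inhibitor-treated over MTAP- cells (adjusted p = 0.00713). LMAN1, which carries clotting factors out of the endoplasmic reticulum, passed in no comparison.

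Transcription factors of the AP-1, ETS, EGR, KLF and NF-kB families, and SP1, known from the promoters of these genes, made up the list with the most genes tested, 18, none of them an EGR gene. With MTAP 6 rose and 2 fell, with the inhibitor in MTAP+ cells 1 rose and 1 fell, and in the third comparison 7 rose and 1 fell. That is 8, 2 and 8 of 18, where 19.1%, 14.9% and 37.3% of all genes passed, and the last 2 counts are near those shares. The rises counted against MTAP- cells include RELB and JUNB, which were above the filter on 0 MTAP- arrays. They also include ETV4, above it on 1 MTAP- array, 3 MTAP+ arrays and 3 inhibitor arrays. All 3 were tested only through the higher groups, so these counts are a description. The medians were 0.15, 0.01 and 0.24, against 0.01, -0.02 and -0.00 over all genes. RELB, an NF-kB subunit, rose by 0.82 ± 0.13 in MTAP+ over MTAP- cells (adjusted p = 0.00234) and by 1.16 ± 0.13 in inhibitor-treated over MTAP- cells (adjusted p = 1.51e-04), in all 18 alternatives that kept it. RELB passed the filter only through the 3 inhibitor arrays, where it was highest, and so had to differ to be tested. FOSL2, an AP-1 subunit, rose by 0.67 with MTAP (adjusted p = 0.0153), and did not pass when its 5 probe sets were averaged or with the ACTB covariate (adjusted p up to 0.142). The 2 that fell with MTAP were JUN, another AP-1 subunit, by 0.41 (adjusted p = 0.0155), and ETS2 by 0.45 (adjusted p = 0.0213). In the third comparison JUN fell by 0.40 (adjusted p = 0.00855). The AP-1 subunits JUNB and JUND rose with MTAP, each by 0.51 (adjusted p = 0.0124 and 0.0187). The calls of JUN, ETS2 and JUND, and that of JUNB with MTAP, were not followed through the alternatives. KLF2 fell by 1.06 ± 0.19 when MTAP+ cells received the inhibitor (adjusted p = 0.00642). Its rise of 0.69 with MTAP (adjusted p = 0.0317) was lost without MTAP- replicate 2 or 3, MTAP+ replicate 1 or 2 or inhibitor replicate 3 (adjusted p up to 0.104), with only the 2 groups, with array weights and with the ACTB covariate (adjusted p = 0.237). ETV4, an ETS factor, rose by 1.01 ± 0.30 with MTAP (adjusted p = 0.0392), and passed in only 7 of 18 alternatives, with the call lost on omission of any 1 array but MTAP- replicate 1 and MTAP+ replicate 3 (adjusted p up to 0.0968), and with the ACTB covariate (adjusted p = 0.257). The other ETV4 probe set, 211603_s_at, rose by 0.41 with MTAP and 0.47 in the third comparison. It passed in neither (adjusted p = 0.163 and 0.0824 over all probe sets). JUNB rose by 0.62 in the third comparison (adjusted p = 0.00196). JUNB was above the filter on 0 MTAP- arrays, 1 MTAP+ array and 3 inhibitor arrays. ETS1 rose by 0.53 with the inhibitor in MTAP+ cells (adjusted p = 0.0147) on probe set 224833_at, while probe set 1555355_a_at differed by -0.47, and with the mean of both it did not pass (adjusted p = 0.891). Nor did ETS1 pass without inhibitor replicate 1 or 3 (adjusted p up to 0.0766). In the third comparison, where ETS1 is among the rises counted, its probe sets passed in opposite directions. There 224833_at rose by 0.50 (adjusted p = 0.0127 over all probe sets) and 1555355_a_at fell by 0.55 (adjusted p = 0.0330). With the mean of both it did not pass (adjusted p = 0.894). FOSL1, the AP-1 subunit of highest level, passed in no comparison.

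The last list held integrins and growth factor receptors that signal with the urokinase receptor, of which 7 were tested. With MTAP 2 rose and 0 fell, with the inhibitor in MTAP+ cells 0 passed, and in the third comparison 2 rose and 0 fell. These are 2, 0 and 2 of 7, near or below the 19.1%, 14.9% and 37.3% of all genes. The medians were 0.23, 0.08 and 0.26, against 0.01, -0.02 and -0.00. ITGA3, a laminin receptor subunit, rose by 0.77 ± 0.19 in MTAP+ over MTAP- cells (adjusted p = 0.0181) and by 0.94 ± 0.19 in inhibitor-treated over MTAP- cells (adjusted p = 0.00307). The first call was lost without MTAP- replicate 3 or MTAP+ replicate 1 or 3 (adjusted p up to 0.0687) and with the ACTB covariate (adjusted p = 0.0941). ITGA5, the fibronectin receptor subunit, rose by 0.45 with MTAP (adjusted p = 0.0284), and did not pass without MTAP- replicate 1 or 3 or MTAP+ replicate 1 or 3 (adjusted p up to 0.0825), after centring, with only the 2 groups or with the ACTB covariate (adjusted p = 0.0788). EGFR rose by 0.76 in the third comparison (adjusted p = 0.0405), a call lost without MTAP- replicate 1 or 3 or inhibitor replicate 2 or 3 (adjusted p up to 0.139) or with the ACTB covariate (0.216), and its 5 probe sets differed between 0.26 and 1.03. Over all probe sets, EGFR 201984_s_at passed with the inhibitor in MTAP+ cells (0.83, adjusted p = 0.00677) and in the third comparison (1.03, adjusted p = 6.19e-04). The other EGFR probe sets passed in no comparison. ITGB1 and CAV1, the 2 of highest level, passed in no comparison on their brightest probe sets. CAV1 did not pass on its other probe set either. ITGB1 probe set 1553530_a_at rose by 1.16 with MTAP (adjusted p = 0.0209) and by 1.17 in the third comparison (adjusted p = 0.0102), and 1553678_a_at by 0.91 in the third comparison (adjusted p = 0.0277).

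**Figure D5:**
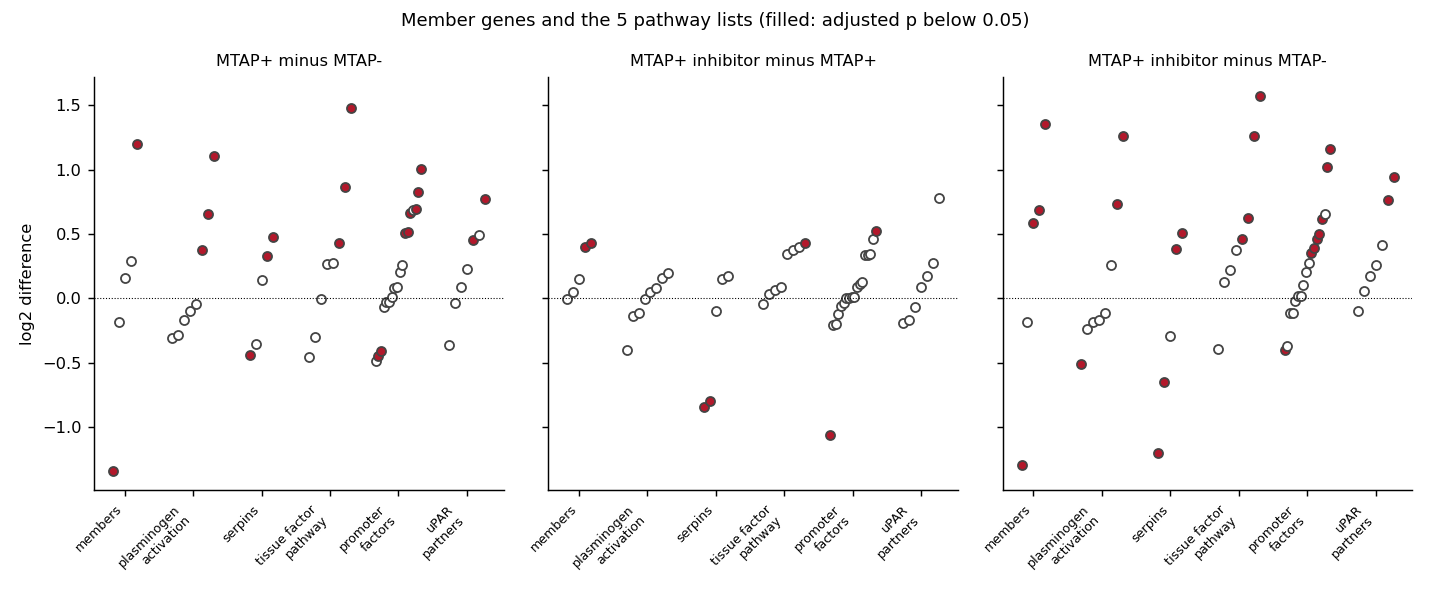
Log2 differences (vertical axis) of the 5 member genes and of the tested genes in the 5 lists, members left out of the lists, in the 3 comparisons; each point is 1 gene, sorted within its list, and filled points have an adjusted p below 0.05. In the middle panel SERPINB5 (-0.85), SERPINB8 (-0.80) and KLF2 (-1.06) lie lowest, and in the outer panels F2R (1.48 and 1.57) lies highest.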

How the data were processed

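The deposited table holds log2 values that the authors made with RMA, per the submitters' processing notes, without a stated version. RMA subtracts background, makes the arrays' distributions equal and summarises the probes of a probe set. Values were present for 17474 of 54675 probe sets, each at 6.64 or more on at least 3 arrays, so dim probe sets are missing. Precision is limited by 3 arrays a group (median SE 0.126).

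Probe sets were named from the platform annotation. The probe set of highest mean over all arrays stood for its gene, and 7011 of 9453 genes passed the 40th percentile of values (7.96) on at least 3 of 9 arrays. The 3 groups were fitted with limma 3.58.1 (R 4.3.3, lmFit and eBayes), without a covariate, and adjusted by Benjamini-Hochberg at 0.05. All 17466 non-control probe sets were fitted alike. The code was tested on simulated data. MTAP is left out of counts.

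The members, lists and naming rule (all members, up to 4 changed genes of largest change and 2 unchanged of highest level per list and comparison, 3 most correlated genes per member, MTAP) were chosen with earlier results of these data known. JUN and ETS2 are named outside the rule, as the promoter factors that fell with MTAP. The rises of JUNB and JUND with MTAP are given beside them, also outside the rule. Lists are described by counts and medians. Over the genes tested, same-numbered arrays deviated together, with r 0.15 to 0.38 between MTAP- and MTAP+ and 0.35 to 0.77 between MTAP+ and inhibitor. This pairs the numbers there. Between MTAP- and inhibitor arrays r was 0.024 to 0.31.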

Additional observations from a re-analysis of the deposited data

How the results depend on the processing

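Alternatives were the mean of a gene's probe sets, no filter or the 60th percentile, centred or re-quantiled arrays, a fit of only the 2 groups, a replicate block, array weights, the ACTB covariate, a trended prior and each array left out. SERPINE2 and F3 kept their calls against MTAP- cells, as did PLAU and PLAT with the inhibitor against MTAP- cells, wherever they had a value; the 60th percentile left F3 out and so 1 member changed in MTAP+ over MTAP- cells. In that comparison PLAU, 0.29 and not passing, passed with its probe sets averaged (0.64), with the replicate block (0.29, paired numbers) and with array weights (0.33). The block changed no other member call at the gene level, and moved the count of all genes changed with the inhibitor in MTAP+ cells from 1042 to 1589. Leaving out 1 array gave 0 to 2 members changed with the inhibitor in MTAP+ cells, with PLAU at 0.35 to 0.44, PLAT at 0.38 to 0.48 and F3 at -0.11 to 0.14.

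PLAUR differences near 0 changed sign without passing. With the inhibitor in MTAP+ cells 210845_s_at was 0.0151 after centring, 0.0239 after quantile normalization, 0.0156 (gene) or 0.00631 (probe set) with weights and 0.00725 with the ACTB covariate, and -0.024 to 0.035 with 1 array left out. Over omissions 211924_s_at ran from -0.034 to 0.108 there and from -0.105 to 0.0092 against MTAP- cells. Between MTAP+ and MTAP- cells 214866_at was -5.83e-04 after centring, -0.00139 after quantile normalization and -0.074 to 0.179 over omissions. The cause was not tested. With its probe sets averaged, PLAUR differed by -0.17 with the inhibitor in MTAP+ cells and by -0.06 between MTAP+ and MTAP- cells, and passed in neither.

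The background moved more. In MTAP+ over MTAP- cells 1336 genes passed, 470 with the ACTB covariate, 752 with only 2 groups, 2164 with weights, and 745 without MTAP- replicate 3, 782 without MTAP+ replicate 3 or 876 without MTAP- replicate 2. With the inhibitor in MTAP+ cells 1042 passed, 1832 with weights, 372 without inhibitor replicate 3, 603 without inhibitor replicate 2, 627 without inhibitor replicate 1 and 667 without MTAP+ replicate 1. Of the genes that passed in the first comparison 61.4% were higher in MTAP+ cells, against 43.2% after centring and 47.9% after quantile normalization. No detection calls were used, so how far the low F3 readings lie above background is not known here.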
